A study of Homo sapiens with 6 samples.

Results

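The BCL2 family decides whether the outer membrane of the mitochondrion stays intact, and 10 of its genes were followed here, chosen by name from the 26334 genes of the deposited count table. All 10 were found, and all 10 passed the filter on low counts that left 16117 genes for testing. The cells were MCF10DCIS.com, a human breast cancer cell line of the MCF10 series that forms lesions resembling ductal carcinoma in situ. The control group, shLuc, carried a short hairpin RNA against luciferase, and the other group, shWDR5, carried hairpin RNA against WDR5, a WD40 repeat protein of the histone H3 lysine methyltransferase complexes. In both groups the hairpin was expressed from a U6 promoter in a vector that also encodes TagRFP and puromycin resistance, cells were selected with puromycin, and they grew in DMEM/F12 with horse serum. Each group had 3 libraries of poly-A RNA. The labels number the replicates without saying whether they were separate infections or cultures, so the p-values measure the spread between these libraries, which may be technical, and the labels name shWDR5 without giving the number of hairpins. For transplantation of this line WDR5 hairpins were pooled, and whether these libraries came from such a pool is not given in the sources used here.

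The family works by binding between its own members. BAX and BAK1, the effectors, form pores in the outer membrane through which cytochrome c escapes, and caspases are then activated. BCL2, BCL2L1 (BCL-XL) and MCL1 are pro-survival proteins that hold the effectors and their activators in check. The BH3-only proteins BCL2L11 (BIM), BBC3 (PUMA), PMAIP1 (NOXA), BID and BIK carry the short BH3 segment and occupy the groove of the pro-survival proteins, and some also activate BAX and BAK1 directly. In breast epithelium this balance is known for removing cells that lose contact with the basement membrane, and BCL2L11 and BMF are known for their part in clearing the lumen of acini formed by MCF10 cells.

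The number of reads assigned to genes ranged from 38218108 to 48500509 in the shLuc libraries and from 46097058 to 57640167 in the shWDR5 libraries. The silenced gene was checked first. WDR5 stood at 16.5, 15.2 and 16.1 RPKM (reads per kilobase of exon and per 1e6 reads in the library, with library sizes scaled by TMM) in the shLuc libraries and at 7.34, 7.65 and 6.52 RPKM in the shWDR5 libraries. The transcript fell by 1.15 ± 0.07 on the log2 scale (SE; edgeR quasi-likelihood test, adjusted p = 8.67e-07), which leaves 0.450 of the control level, and the groups did not overlap. All 9 basal and epithelial markers, among them KRT5, KRT14, KRT17, TP63 and CDH1, were present, with a summed level of 4582 to 4836 CPM (counts per 1e6 reads) in shLuc and 7029 to 7941 in shWDR5. The list moved unevenly, since KRT14 was 2.44 times the control level and CDH1 0.489 times. Of the fibroblast list, COL3A1 and DCN had at most 2 reads each over all 6 libraries, whereas COL1A1 had 5146. Of the leukocyte list CD3E had 0 and CD68 had 3164, and of the endothelial list VWF had 39 and PECAM1 had 1421. A mean of 1 CPM was reached by 1 of 5 fibroblast, 1 of 4 leukocyte and 2 of 3 endothelial markers. Summed luminal receptor markers ran from 186 to 193 CPM in shLuc and from 134 to 142 in shWDR5, summed fibroblast markers from 21.6 to 23.7 and from 14.9 to 17.8, summed leukocyte markers from 10.5 to 13.05 and from 10.4 to 12.4, and summed endothelial markers from 7.58 to 7.93 and from 4.71 to 5.36. The part of these marker shifts in the results given here was not tested. In bulk RNA, fewer cells of a type and less RNA per cell cannot be told apart.

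Pro-survival transcripts were lower and most pro-death transcripts higher after WDR5 silencing. Of the 10 members, 9 passed an adjusted p of 0.05 in the edgeR quasi-likelihood test over all tested genes. The background is high, since 56.5% of all tested genes passed the same test, with 26.6% of all tested genes higher and 29.9% lower in shWDR5. All 3 pro-survival members fell, both effectors rose, and 4 of the 5 BH3-only members rose, while PMAIP1 did not pass. The median log2 fold change was -0.41 over the 3 pro-survival members and 0.39 over the 7 pro-death members, beside -0.01 over all tested genes. In 9 of the 10 members the 3 shWDR5 libraries lay wholly above or wholly below the 3 shLuc libraries, beside 62.3% of all tested genes. With the thresholds the study applied to its xenograft comparisons (an absolute log2 fold change of at least 0.6 and more than 0.5 RPKM besides the adjusted p), 3 members passed, BAX, BIK and BCL2L11, beside 18.4% of all tested genes.

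**Figure D1:**
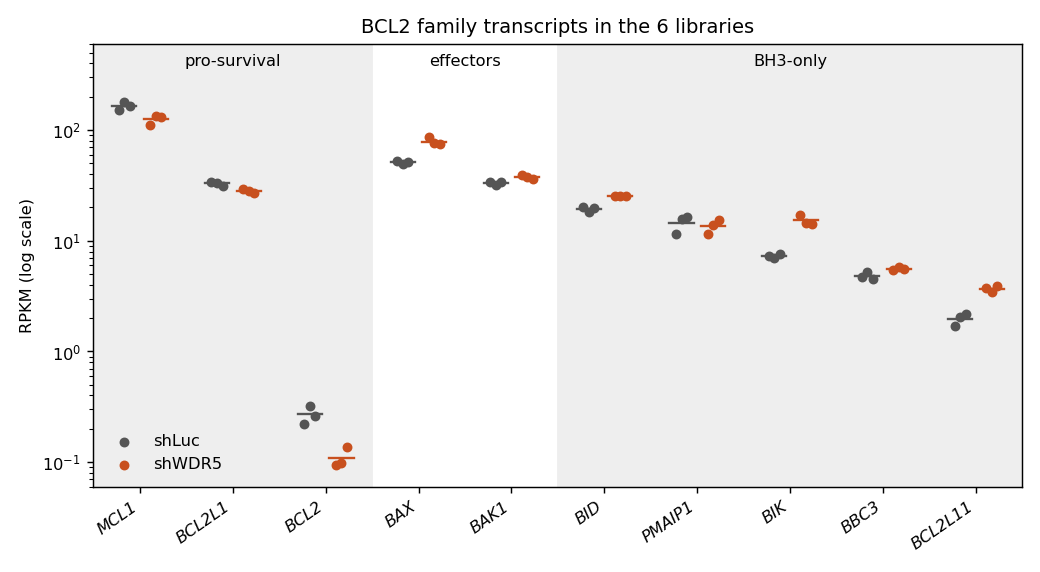
Level of each member in each library, in RPKM on a log axis, with shLuc in grey and shWDR5 in orange; points are libraries and the short lines are group means (n = 3 per group). MCL1 has the highest level in both groups and BCL2 the lowest, and PMAIP1 is the one member whose groups overlap.

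Per kilobase of transcript, the order of the members spanned a wide range. In shLuc, MCL1 was highest at 166 ± 12.6 RPKM (mean ± SD, n = 3), followed by BAX at 51.1 ± 1.71, BAK1 at 33.2 ± 1.16, BCL2L1 at 33.0 ± 1.43 and BID at 19.4 ± 1.17. PMAIP1 at 14.6 ± 2.57, BIK at 7.31 ± 0.266, BBC3 at 4.83 ± 0.397 and BCL2L11 at 1.98 ± 0.264 RPKM came next, and BCL2 closed the order at 0.270 ± 0.0505 RPKM. Neighbours in this order did not overlap between libraries, except BAK1 and BCL2L1, which could not be ranked. The order also depends on the exonic length each gene is divided by, from 953 bases for BIK to 6620 for BCL2. The spread between libraries does not cover that. In shWDR5, BIK at 15.3 ± 1.63 RPKM moved ahead of PMAIP1 at 13.6 ± 2.02, although these 2 overlapped between libraries, and the other members kept their places.

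MCL1, a short-lived protein that binds BCL2L11 and PMAIP1, supplied most of the pro-survival transcript. It stood at 153, 179 and 165 RPKM in the shLuc libraries and at 111, 133 and 130 RPKM in the shWDR5 libraries. Every shWDR5 library was below every shLuc library. MCL1 fell by 0.41 ± 0.08 on the log2 scale (adjusted p = 0.0014), to 0.754 of the control level. The gene lies on the minus strand of chr1:150547027-150552214 (hg19, as are all coordinates of the count table), with 3 exonic blocks.

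BCL2L1 encodes BCL-XL, a pro-survival protein of the mitochondrial membrane, and the table counts the gene as a whole, so its long and short splice forms are not separated. It measured 34.2, 33.2 and 31.4 RPKM in shLuc and 29.6, 28.1 and 27.2 RPKM in shWDR5. The 2 groups came close but did not overlap. The fall was 0.22 ± 0.06 on the log2 scale (adjusted p = 0.0091), to 0.859 of the control. On chr20:30252261-30310656, minus strand, 930 of its 2559 exonic bases (36.3%) are shared with ABALON, a transcript of the opposite strand. ABALON itself was also lower in shWDR5 (log2 fold change -0.33, adjusted p = 0.018), and held 178 to 224 reads in shLuc and 166 to 228 in shWDR5, against 3160 to 4328 for BCL2L1. Whether the counting used strand is not given in the sources used here, so reads of these 2 genes cannot be told apart over the shared bases and the level of BCL2L1 per kilobase is uncertain.

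BCL2, the founding pro-survival member, showed the largest fall of the 3 on the log2 scale, at a low level. Its raw counts were 73, 83 and 70 in the shLuc libraries and 29, 37 and 41 in the shWDR5 libraries, although the shWDR5 libraries were on average the deeper ones. Per length this is 0.223, 0.323 and 0.262 RPKM against 0.0946, 0.0983 and 0.137 RPKM. All control libraries exceeded all silenced libraries. BCL2 fell by 1.29 ± 0.20 on the log2 scale (adjusted p = 0.00032), to 0.409 of the control level, with a 95% interval from -1.74 to -0.84. The gene spans chr18:60790579-60986613 on the minus strand in 3 exonic blocks, and with a mean of 0.270 RPKM in shLuc it does not reach the expression threshold of the study.

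BAX was the more responsive of the effectors. BAX, which moves from the cytosol into the mitochondrial membrane when activated, measured 52.7, 49.3 and 51.4 RPKM in shLuc and 85.8, 76.5 and 74.3 RPKM in shWDR5. The lowest silenced library was well clear of the highest control library. BAX rose by 0.63 ± 0.07 on the log2 scale (adjusted p = 2.37e-05), which is 1.54 times the control level. BAK1, which resides in the outer membrane, went from 34.1, 31.9 and 33.7 RPKM to 38.9, 37.6 and 36.4 RPKM. Its groups were separated by a narrow gap. Its log2 fold change was 0.18 ± 0.06 (adjusted p = 0.019), 1.13 times the control. The call for BAK1 was lost without shLuc replicate 2 (adjusted p = 0.085), without shWDR5 replicate 1 (0.057) and without shWDR5 replicate 2 (0.057), with the log2 fold change between 0.14 and 0.22 over all alternatives. BAX lies on the plus strand of chr19:49458117-49465055 in 7 exonic blocks and BAK1 on the minus strand of chr6:33540323-33548070 in 6.

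BIK and BCL2L11 rose most among the BH3-only members. BIK, a BH3-only protein that resides largely at the endoplasmic reticulum, measured 7.33, 7.04 and 7.57 RPKM in shLuc and 17.2, 14.5 and 14.2 RPKM in shWDR5. Every silenced library lay far above every control library. BIK rose by 1.06 ± 0.09 on the log2 scale (adjusted p = 5.59e-06), 2.09 times the control level. The gene lies on chr22:43506754-43525718, plus strand, in 5 exonic blocks. BCL2L11, whose product binds all pro-survival members and activates BAX, measured 1.68, 2.06 and 2.19 RPKM in shLuc and 3.73, 3.45 and 3.91 RPKM in shWDR5. The groups were far apart, with 516, 495 and 549 raw counts against 1074, 1217 and 1102. Its log2 fold change was 0.91 ± 0.10 (adjusted p = 2.97e-05), 1.88 times the control level. BCL2L11 spans chr2:111878491-111926022 on the plus strand, with 12 exonic blocks over its splice forms.

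The promoters of BAX and BCL2L11 are shown because both genes were among the members that rose most and their windows hold motifs of factors that were measured. A promoter window of RefSeq (GRCh38.p14) was matched by symbol for 8 of the 10 members, in 13 windows, and the 250 bases before the transcript start were searched on both strands for CACGTG, the E-box bound by MYC with MAX and by related factors, and for GTAAACA, bound by forkhead factors such as FOXO1 and FOXO3. BIK, which rose more than BAX and BCL2L11, and MCL1 had no window and were not searched. Motifs and windows were picked after the expression values were known. Capitals mark the motifs, and both sequences run 5′ to 3′ on the plus strand, from chr19:48954625-48954874 for BAX and from chr2:111120664-111120913 for BCL2L11.
BAX: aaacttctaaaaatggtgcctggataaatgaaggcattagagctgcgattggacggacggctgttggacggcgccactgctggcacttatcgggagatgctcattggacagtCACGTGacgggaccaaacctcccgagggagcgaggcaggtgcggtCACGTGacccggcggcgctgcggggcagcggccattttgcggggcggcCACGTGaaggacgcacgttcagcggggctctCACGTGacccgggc
BCL2L11: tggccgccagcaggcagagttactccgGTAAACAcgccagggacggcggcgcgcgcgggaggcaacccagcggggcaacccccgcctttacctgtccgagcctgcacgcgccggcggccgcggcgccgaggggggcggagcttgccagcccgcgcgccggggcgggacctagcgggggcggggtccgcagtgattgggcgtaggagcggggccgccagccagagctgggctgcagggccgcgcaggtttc

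The BAX window holds CACGTG 4 times, with first bases at -138, -93, -45 and -14 counted from the start. Of 35116 upstream windows in the table, 2228 (6.34%) hold this motif and 5 (0.0142%) hold it 4 or more times. The BAX window is itself among these 5, the cut of 4 equals its own count, and windows of the same gene can overlap. BBC3 has 1 copy, at -232, and BID has 1, covered by 2 overlapping windows. The BCL2L11 window holds GTAAACA once, at -223, and 2.98% of all windows hold that motif on either strand. A match is a description of the letters and does not show binding.

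BID changed less, BBC3 was near the threshold, and PMAIP1 showed no call. BID, which caspase-8 cleaves to link death receptors to the mitochondrion, went from 20.1, 18.0 and 19.98 RPKM to 25.6, 25.2 and 25.5 RPKM. The silenced libraries were nearly identical to each other and all above the controls. BID rose by 0.39 ± 0.06 on the log2 scale (adjusted p = 0.00029), 1.31 times the control level. BBC3, which binds all pro-survival members, measured 4.72, 5.27 and 4.50 RPKM in shLuc and 5.41, 5.74 and 5.60 RPKM in shWDR5. Here the highest control lay just under the lowest silenced library. The log2 fold change of BBC3 was 0.21 ± 0.08 (adjusted p = 0.045). That call was lost with the DESeq2 Wald test (adjusted p = 0.057), without the low-count filter (0.066), and without shLuc replicate 1 (0.077), shLuc replicate 3 (0.15), shWDR5 replicate 2 (0.13) or shWDR5 replicate 3 (0.095). PMAIP1, which binds MCL1 and promotes its degradation, measured 11.6, 15.6 and 16.4 RPKM in shLuc and 11.4, 13.8 and 15.4 RPKM in shWDR5. The groups covered the same range, with replicate 1 the lowest library of each. Its log2 fold change was -0.10 ± 0.14 (adjusted p = 0.56), with a 95% interval from -0.40 to 0.20. BID lies on chr22:18216906-18257431, minus strand, BBC3 on chr19:47724079-47736023, minus strand, and PMAIP1 on chr18:57567192-57571538, plus strand.

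**Figure D2:**
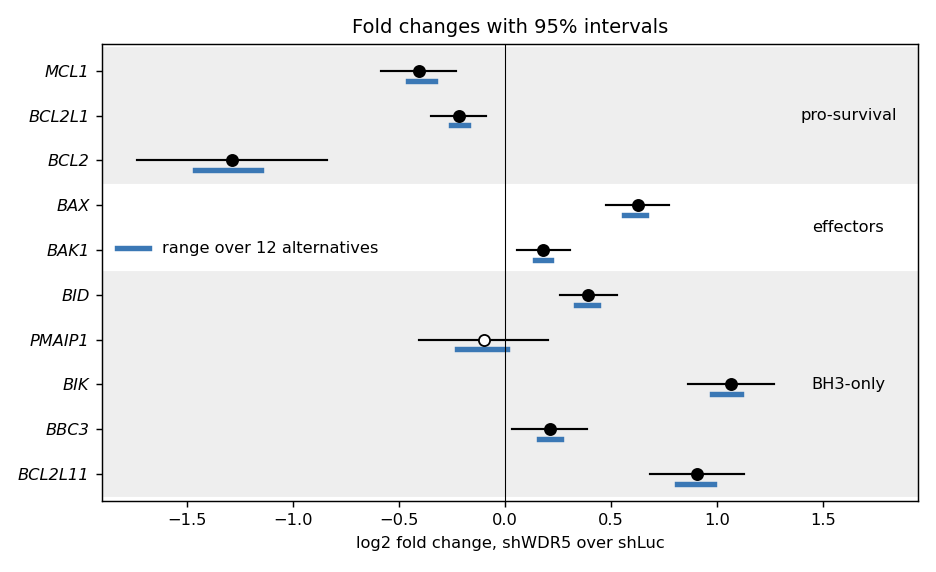
Log2 fold change of each member, shWDR5 over shLuc, with 95% intervals as thin lines, filled circles for adjusted p below 0.05 and an open circle for PMAIP1, and the range over 12 alternative analyses as blue bars. The 3 pro-survival members lie left of 0, and of the pro-death members all but PMAIP1 lie right of 0.

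When the levels per length were summed in each library, the pro-death members passed the pro-survival members in all 3 silenced libraries and in none of the control libraries. The pro-survival sum was 188, 212 and 196 RPKM in shLuc and 141, 161 and 158 RPKM in shWDR5. The pro-death sum was 132, 129 and 136 RPKM in shLuc and 188, 177 and 175 RPKM in shWDR5. The pro-death sum thus amounted to 66.8% ± 5.14 of the pro-survival sum in shLuc and to 118% ± 13.6 in shWDR5 (SD, n = 3 each). These sums follow the most abundant genes. MCL1 made up 83.2% ± 1.37 of the pro-survival sum in shLuc and 81.3% ± 2.16 in shWDR5. BAX, the most abundant pro-death member, had a mean of 51.1 RPKM in shLuc and 78.9 in shWDR5. The mean pro-death sums were 132 and 180 RPKM. Both sums also depend on the exonic length each member is divided by, and the level of BCL2L1 per kilobase is uncertain. No test was made because the members were chosen with earlier results known.

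Ratios between binding partners moved by different amounts. The level of BAX was 1.55 ± 0.0784 times that of BCL2L1 in shLuc and 2.78 ± 0.0985 times in shWDR5. BCL2L11 stood at 0.0119 ± 0.00122 of the level of MCL1 in shLuc and at 0.0299 ± 0.00391 in shWDR5, a ratio 2.50 times as high. The 5 BH3-only members together amounted to 24.2% ± 1.57 of the pro-survival sum in shLuc and to 41.7% ± 3.14 in shWDR5. Within a group these ratios depend on the gene lengths as well. Transcript levels do not give protein levels, and none were measured in these libraries.

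**Figure D3:**
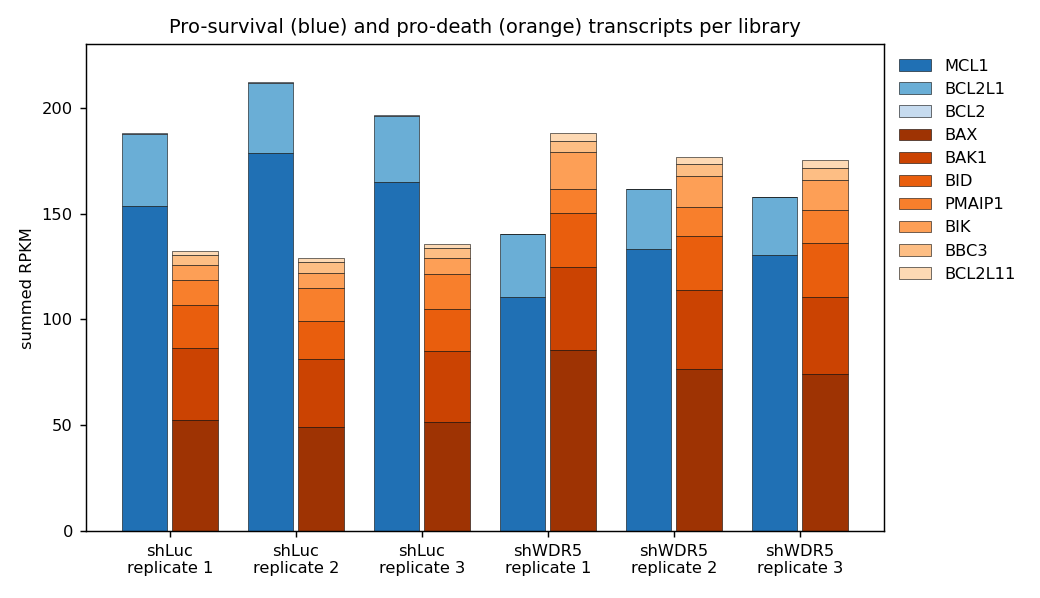
Summed RPKM of the 3 pro-survival members (blue stack) and the 7 pro-death members (orange stack) in each of the 6 libraries, from 0. The pro-survival stack is the taller one in the 3 shLuc libraries and the shorter one in the 3 shWDR5 libraries.

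Among the transcription factors known to act on these genes, 11 of 15 passed, 8 higher and 3 lower in shWDR5, with a median log2 fold change of 0.30, beside 56.5% of all tested genes passing, 26.6% higher and 29.9% lower. TP73, a transcription factor that can induce apoptosis genes, rose by 1.12 ± 0.13 on the log2 scale (adjusted p = 5.30e-05) from a mean of 0.183 to 0.400 RPKM. NFKB1, an NF-kB subunit, rose by 0.54 ± 0.06 and FOXO1 by 0.50 ± 0.08. A further 2 factors were singled out after their values were seen, for their link to the promoters. MYC rose by 0.39 ± 0.05 on the log2 scale (adjusted p = 9.88e-05). FOXO3, a known activator of BCL2L11, had a log2 fold change of 0.12 ± 0.07 (adjusted p = 0.18). The 3 that fell were FOXO4, E2F1 and ATF4, by 0.48, 0.47 and 0.28 on the log2 scale.

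Among the other BCL2 family genes, BMF rose most and the pro-survival genes BCL2A1 and BCL2L2 fell. Of 11 such genes, 8 were tested and 5 passed, 2 higher and 3 lower, with a median log2 fold change of -0.08, a share of calls near the 56.5% of all tested genes, and BCL2L10, BCL2L14 and HRK had too few reads. BMF, a BH3-only protein that responds to loss of attachment, measured 0.568, 0.470 and 0.482 RPKM in shLuc and 2.37, 1.58 and 2.24 RPKM in shWDR5. It rose by 2.01 ± 0.16 on the log2 scale (adjusted p = 3.96e-06), 4.03 times the control. BAD, a BH3-only protein regulated by phosphorylation, did not pass, with a log2 fold change of -0.14 (adjusted p = 0.12). BCL2A1, a pro-survival protein induced by NF-kB, fell by 0.61 ± 0.11 and BCL2L2 (BCL-W), also pro-survival, by 0.32 ± 0.06 on the log2 scale (adjusted p = 0.00091 and 0.00077). BCL2L2 shares 661 of its 3658 exonic bases with the readthrough gene BCL2L2-PABPN1, which is listed at 0 in all 6 libraries. How reads over bases shared by 2 genes were assigned is not given in the sources used here. The 0 therefore does not show that the readthrough is absent, and the level of BCL2L2 per kilobase is uncertain. Named after their values were seen, the remaining genes that passed were BOK, an effector relative, which rose by 0.26 ± 0.08, and BCL2L13, which fell by 0.32 ± 0.06. The call for BOK was lost without shLuc replicate 3 (adjusted p = 0.059) and without shWDR5 replicate 1 (0.059).

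Of 13 apoptosome and caspase genes, which act downstream of the mitochondrion, 8 passed, 2 higher and 6 lower, with a median log2 fold change of -0.07, and this share is near the 56.5% of all tested genes. Of the lower calls, that of CASP8 (adjusted p = 0.028) was lost under 5 of 12 alternatives, with an adjusted p of up to 0.10, and that of AIFM1 (adjusted p = 0.012) without shWDR5 replicate 3 (0.054). CASP10, an initiator caspase of death receptors, fell by 0.57 ± 0.12 and ENDOG, a mitochondrial nuclease, rose by 0.52 ± 0.12. APAF1 and CASP9, which assemble into the apoptosome, did not pass, with log2 fold changes of -0.07 and 0.08. DFFA and DFFB, the inhibitor and the nuclease of DNA fragmentation, fell by 0.41 and 0.45 on the log2 scale.

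Inhibitors of apoptosis proteins and their antagonists moved both ways, with 4 of 8 tested genes passing, 3 higher and 1 lower, and a median log2 fold change of 0.11, a share near the 56.5% of all tested genes. BIRC7 had too few reads. DIABLO (SMAC), which leaves the mitochondrion and blocks these inhibitors, rose by 0.48 ± 0.07 on the log2 scale (adjusted p = 0.00031), and BIRC2, an inhibitor and ubiquitin ligase, rose by 0.47 ± 0.10. BIRC3 rose by 0.28 ± 0.10 and BIRC5 (survivin) fell by 0.19 ± 0.05. The BIRC3 call (adjusted p = 0.029) was lost without shLuc replicate 1 (0.064), shLuc replicate 3 (0.061), shWDR5 replicate 2 (0.070) or shWDR5 replicate 3 (0.11). The BIRC5 call (adjusted p = 0.012) was lost without shLuc replicate 1 (0.050) or shWDR5 replicate 3 (0.055) and with upper-quartile scaling (0.051).

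Among 7 genes listed as partners of the outer membrane, 6 passed, 3 higher and 3 lower, beside 56.5% of all tested genes passing. Their median log2 fold change was 0.09. BNIP3 and BNIP3L, relatives of the BH3-only proteins that act in mitophagy, rose by 1.14 ± 0.05 and 0.69 ± 0.14 on the log2 scale (adjusted p = 1.80e-07 and 0.0017), and TSPO rose by 0.42 ± 0.08. VDAC1 and VDAC3, channels of the outer membrane, fell by 0.34 and 0.37. HSPD1, a mitochondrial chaperonin and not an outer membrane protein, was also in this list and fell by 0.17 ± 0.06. The HSPD1 call (adjusted p = 0.025) was lost under 6 of 12 alternatives. VDAC2, which holds BAK1 in the membrane, had a log2 fold change of 0.09 (adjusted p = 0.21). Of the 11 genes for turnover of MCL1, BCL2L11 and PMAIP1 proteins, 6 passed, 3 higher and 3 lower, with a median log2 fold change of -0.05, again a share near that of all tested genes. CUL5, a cullin, rose by 0.70 ± 0.12, and MAPK3 (ERK1), a kinase that marks BCL2L11 for degradation, fell by 0.56 ± 0.07. DYNLL1, a dynein light chain that binds BCL2L11, rose by 0.33 ± 0.05 on the log2 scale. The remaining turnover calls were less stable. FBXW7, higher (adjusted p = 0.038), lost its call under 4 of 12 alternatives, and its groups overlapped. MARCH5 and BTRC, both lower (adjusted p = 0.022 and 0.017), lost theirs under 3 and 2. Over the 6 lists together, 40 of 62 tested genes passed, 21 higher and 19 lower, with a median log2 fold change of 0.07, beside 56.5% of all tested genes passing, 26.6% higher and 29.9% lower.

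**Figure D4:**
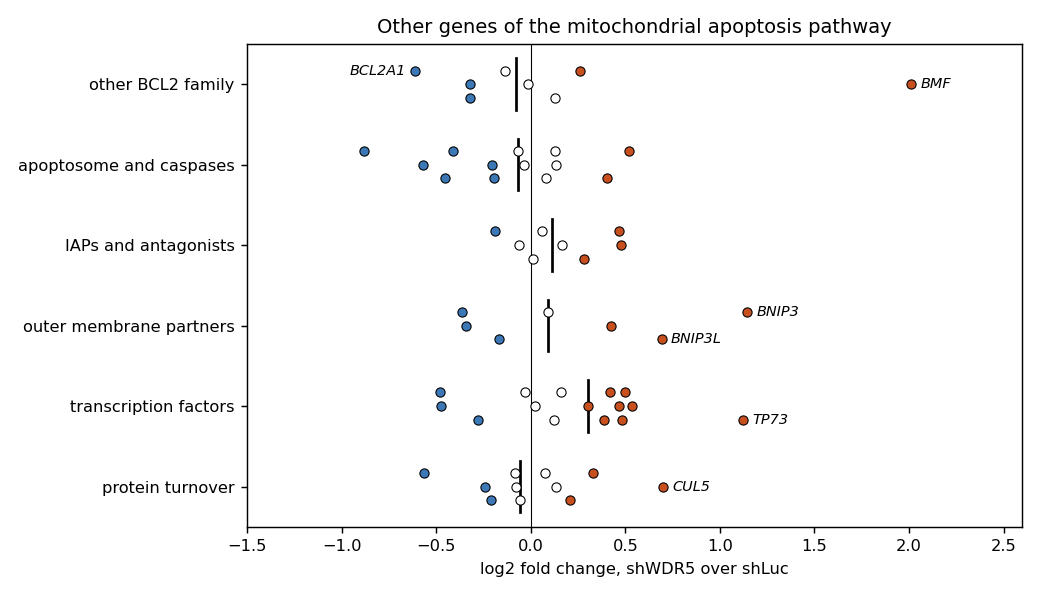
Log2 fold change, shWDR5 over shLuc, of the 62 tested genes in 6 lists of the mitochondrial apoptosis pathway; orange and blue circles passed an adjusted p of 0.05 higher or lower, open circles did not, and the vertical bars are list medians. BMF lies farthest to the right at 2.01, followed by BNIP3 at 1.14 and TP73 at 1.12.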

How the data were processed

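RNA sequencing of 3 shLuc and 3 shWDR5 libraries was analysed from the count table the authors deposited, which holds raw read counts per gene with exon coordinates and gene lengths. The submitters' processing notes name TopHat2 2.1.0, featureCounts, edgeR 3.2.2 and hg19. The annotation release and the strand setting are not given in the sources used here. A second deposited table holds the authors' own fold changes and p-values and was not used.

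Genes were filtered with filterByExpr (16117 of 26334 kept), scaled by TMM and tested with edgeR 4.0.16 (glmQLFit and glmQLFTest, R 4.3.3) on all 6 libraries with the group as the one term. P-values were adjusted by the Benjamini-Hochberg method over all genes tested, and a gene was called at an adjusted p below 0.05. SE is the log2 fold change divided by the square root of the F statistic, and 95% intervals use the degrees of freedom of that test. RPKM was computed from the counts with TMM-scaled library sizes. DESeq2 1.42.0, limma-voom 3.58.1, other scalings, no filter, a replicate block and leaving out each library were alternatives, and the fit was tested on simulated data. Replicates of a group differed by more than sampling noise.

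The members and the pathway lists were chosen with earlier results of these data known. All 10 members were named, and from each other list the 3 called genes with the largest absolute log2 fold change. Further names were added after their values were seen. Some listed genes are counted in their lists but not reported here by name.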

Additional observations from a re-analysis of the deposited data

How the results depend on the processing

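Of the 10 members, 7 kept their call and direction under all 12 alternatives to the test, scaling, filter and set of libraries, and the exceptions were BAK1, BBC3 and PMAIP1. Without shWDR5 replicate 1 the log2 fold change of PMAIP1 turned from -0.10 to 0.0092, with no call in either case, and leaving out 1 library at a time gave -0.23 to 0.0092 (adjusted p 0.11 to 0.99 over its alternatives). The number of members called was 7 to 8 when 1 library was left out, 8 with DESeq2 or without the filter, and 9 with limma-voom or the other scalings. The study's stricter thresholds left 3 members, 6 genes of the pathway lists and 2962 of all genes, by their construction, and BCL2 missed them through its low RPKM. The 41 pathway genes followed were the 40 called in the main test and FOXO3, and the other uncalled genes were not followed. Of these 41, 31 kept their call under all 12 alternatives and none changed direction. Nearly all were picked by their calls in the same libraries, so this is no independent support for their directions. The log2 ratio of the pro-death to the pro-survival sum between the groups was 0.82, 0.76 with other family genes of known role added, and 0.72 to 0.87 with 1 library left out.

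Libraries with the same replicate number correlated in their deviations from the group mean by 0.37, 0.04 and 0.12 over all tested genes. Those with different numbers correlated by -0.31 to 0.21, and not every library correlated best with its own number. These values do not settle whether replicates were paired. The labels do not name pairs, and the main test did not take the numbers as pairs. With the replicate number as a block, 10412 genes were called in place of 9112, 43 of the pathway genes in place of 40, and 9 members as before, and FOXO3 was called (adjusted p = 0.047). With 29 to 83 reads per library, BCL2 is the member whose precision is limited most by depth.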
